A study of Mus musculus with 17 samples.

Results

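The proteasome genes were followed in RNA-Seq of cultured mouse peritoneal macrophages (PMs) given the HIV protein Tat. They were taken by symbol, as every gene of the deposited table named Psma, Psmb, Psmc, Psmd, Psme, Psmf or Psmg with a number, and the 3 inducible catalytic subunits Psmb8, Psmb9 and Psmb10 were kept apart for comparison. This left 47 of 21683 listed genes. Of these, 8 encode alpha and 8 encode beta subunits of the 20S core, 6 encode ATPases and 3 encode other subunits of the base, 8 encode subunits of the lid, 6 encode activators or an inhibitor, and 7 encode assembly chaperones. The remaining match, Psmc3ip, encodes a meiotic recombination factor and is a proteasome gene by name only. Testing needed at least 1 TPM (transcript abundance normalized for length and library total) in at least 5 libraries, which 46 of the 47 genes reached, and the exception was Psmb11, a beta subunit of thymic epithelium, which was listed at 0 in the 12 F/F libraries and was at most 0.0156 TPM in the ΔMye Tat libraries.

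The proteasome degrades proteins tagged with ubiquitin. Its 20S core is a barrel of alpha and beta rings, in which Psmb5, Psmb6 and Psmb7 encode the constitutive catalytic beta subunits and Psmb8, Psmb9 and Psmb10 encode the subunits that replace them in the immunoproteasome of immune and interferon-treated cells. The 19S regulator, made of a base and a lid, binds and unfolds ubiquitinated substrates, whereas the PA28 activator encoded by Psme1 and Psme2 opens the core without ubiquitin and is known for its part in making peptides for antigen presentation.

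PMs were elicited with thioglycollate in 8-week-old C57BL/6 mice, left to attach for 4 h and treated for 12 h. The labels place collection 3 days after thioglycollate, and the study's methods give another interval. All mice carried the floxed IKKβ allele. The controls were PBS-treated PMs of IKKβ F/F mice (called F/F PBS, n = 6 libraries), and they were compared with PMs of that genotype with Tat at 100 nM (F/F Tat, n = 6) and PMs of IKKβ ΔMye mice, also with Tat at 100 nM (ΔMye Tat, n = 5), in which Cre expressed from the lysozyme gene Lyz2 deletes IKKβ in myeloid cells, macrophages and neutrophils included. PBS-treated IKKβ ΔMye PMs were not analysed here, and what the deletion alone did before Tat is therefore unknown. The study describes the libraries as biological replicates of mice, while the labels give no animal for a library.

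The listed TPM summed to between 889318 and 903576 in a library, and 9260 to 10378 genes reached 1 TPM. The depth of the libraries is unknown because TPM keep no read counts. Ikbkb, which encodes IKKβ, had means of 26.8, 23.2 and 16.4 TPM in F/F PBS, F/F Tat and ΔMye Tat, and the ΔMye Tat libraries lay below every F/F Tat library. The 7 macrophage markers examined summed to 25603 to 26604 TPM with PBS, 9432 to 10073 TPM in the F/F libraries with Tat and 7004 to 7323 TPM in ΔMye Tat, most of it Lyz2, the gene that carries the Cre. The other markers did not move as 1. In the TPM as deposited, the means of Adgre1, Cd68, Itgam and Csf1r fell from F/F PBS to F/F Tat. Those of Fcgr1 (113 to 300 TPM) and Mertk (15.4 to 20.1 TPM) rose. In ΔMye Tat, Adgre1, Cd68, Itgam, Csf1r and Mertk had higher means than in F/F Tat, and Fcgr1 had a lower mean (164 TPM). The 5 T cell markers summed to 3.2 to 7.85 TPM with PBS, 1.82 to 2.95 TPM in the F/F libraries with Tat and 6.78 to 9.17 TPM in ΔMye Tat, so that the Tat groups did not overlap. Sums over the 4 B cell markers (8.20 to 25.4 TPM), 3 NK cell markers (3.90 to 7.87 TPM) and 3 eosinophil markers (0.401 to 1.01 TPM) were low in all libraries. The 4 neutrophil markers summed to 54.0 to 67.3 TPM with PBS, 63.8 to 76.3 TPM in the F/F libraries with Tat and 85.5 to 102 TPM in ΔMye Tat, nearly all of it S100a8, and Mpo had a mean under 0.02 TPM in each group. Retnlg and S100a9 went the other way. Their means in F/F PBS, F/F Tat and ΔMye Tat were 5.07, 0.671 and 0.298 TPM for Retnlg, and 1.15, 0.842 and 0.716 TPM for S100a9. The 4 mast cell markers summed to 22.5 to 43.7 TPM, highest in F/F PBS, and the 4 mesothelial markers to 0.897 to 4.29 TPM. The part of these differences in the results was not tested. In bulk RNA, fewer cells of a type and less RNA per cell cannot be told apart.

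Psme1, a PA28 gene, had the highest log2 fold change of the proteasome genes with Tat, and the PA28 genes are shown first. Psme1 (chr14:55578123-55581529, plus strand) and Psme2 (chr14:55587441-55591113, minus strand) lie close together on chromosome 14 of GRCm38. The RefSeq windows of 250 bases before their starts in GRCm38.p6 (chr14:55578244-55578493 and chr14:55591102-55591351) are given because these genes moved together, and that of the constitutive catalytic gene Psmb5 (chr14:54617996-54618245, minus strand), also on chromosome 14, because it moved the other way on the deposited scale. Capitals mark the antioxidant response element (ARE) core TGACNNNGC, read on either strand, to which the transcription factors NRF1 and NRF2 of proteasome genes bind.
Psme1: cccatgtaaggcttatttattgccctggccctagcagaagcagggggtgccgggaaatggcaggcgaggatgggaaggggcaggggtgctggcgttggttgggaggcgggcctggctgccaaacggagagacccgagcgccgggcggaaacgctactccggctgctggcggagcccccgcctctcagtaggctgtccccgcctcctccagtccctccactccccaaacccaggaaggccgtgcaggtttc
Psme2: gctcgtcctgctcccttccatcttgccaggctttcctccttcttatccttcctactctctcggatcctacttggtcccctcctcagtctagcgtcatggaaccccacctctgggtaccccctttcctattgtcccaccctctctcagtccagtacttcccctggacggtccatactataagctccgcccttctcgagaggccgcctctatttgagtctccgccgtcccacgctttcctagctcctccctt
Psmb5: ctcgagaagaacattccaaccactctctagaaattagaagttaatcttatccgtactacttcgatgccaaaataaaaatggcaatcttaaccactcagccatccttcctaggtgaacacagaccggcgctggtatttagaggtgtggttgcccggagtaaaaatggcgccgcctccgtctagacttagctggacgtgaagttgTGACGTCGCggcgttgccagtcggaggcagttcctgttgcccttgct
Neither PA28 window held the ARE core, CCAAT, the interferon-stimulated response element (ISRE) core (GAAA, any 2 bases, GAAA), the gamma-activated site TTCNNNGAA or the NF-κB consensus, and the Psmb5 window held the ARE core 47 bases before the start. The annotation also lists Psme1 transcripts that start further upstream. It places the starts of Psme2 (chr14:55591113) and Psmb5 (chr14:54618022) within the windows shown. These matches are descriptions of letters in a window and not of bound sites.

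Windows were available for 39 of the 47 genes and for 27025 symbols in all. The ARE core was found in 5 of the 39 windows (12.8%, against 10.1% of all windows), CCAAT in 14 (35.9% against 34.5%), the ISRE core in 3 (7.69% against 3.04%), the gamma-activated site in 1 (2.56% against 7.18%) and the NF-κB consensus in 5 (12.8% against 7.01%). The window was then extended by the 50 bases after the start, a choice made after the values were seen. The ISRE core was found in 5 of these windows (12.8% against 3.49% of all), including that of Psme1, where it lay 10 bases into the transcript. The others were Psmb3, Psmd4, Psmd9 and Psmg4. With Tat on the deposited scale, Psmb3, Psmd9 and Psmg4 were called lower (-0.47, -0.68 and -0.38) and Psmd4 higher (0.12). After median-ratio scaling Psmb3, Psmd4 and Psmg4 were called higher (0.17, 0.75 and 0.25) and Psmd9 was not called (-0.04). The sites of 7 genes whose levels are described in the text are shown in 30 bases each, with the matched bases in capitals: the ISRE core of Psme1 (chr14:55578493-55578522), the ARE core of Psmb6 (chr11:70525337-70525366), and all 5 with the NF-κB consensus, Psmd11 (chr11:80428496-80428525), Psmd12 (chr11:107479333-107479362), Psme4 (chr11:30771736-30771765), Psmd13 (chr7:140882343-140882372) and Psma7 (chr2:180042572-180042601). Psma7 is on the minus strand and the others are on the plus strand. The annotated genes of Psmd13 and Psme4 begin before these sites, at chr7:140881968 and chr11:30771726, so the sites lie within those genes. Of the 5 with the NF-κB consensus, Psmd11, Psmd12 and Psme4 rose with Tat on both scales described in the text. Psmd13 was lower on the deposited scale (-0.21) and higher after median-ratio scaling (0.43). Psma7 was not called on the deposited scale (0.05) and was higher after scaling (0.69). Of all 46 tested proteasome genes, 22 were called higher on both scales, and a link between the motif and the change was not tested.
Psme1: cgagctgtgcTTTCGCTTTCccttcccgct
Psmb6: actaaagagagTGACGGAGCgctttacgac
Psmd11: tgtcgcttgcGGGACGCTCCtgggccaccc
Psmd12: cgaggagactGGAGTCCCCCaaagccccgc
Psme4: aggccggtccGGAACCTCCCggcgctgcgg
Psmd13: tgaggctagtGGGACGCTCCcagcatgccc
Psma7: gataccgcgcGGAGGCCCCCtgcacccggc
No motif was shared by most of the genes that rose with Tat.

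To determine how Tat affected the proteasome genes in F/F PMs, F/F Tat was compared with F/F PBS by limma on log2(TPM + 0.1), with all tested genes in the fit and calls at an adjusted p (Benjamini-Hochberg) under 0.01. With Tat, the PA28 genes and most genes of the alpha ring and the lid rose, and Psmg1 and Psmg2, the genes of chaperones that build the alpha ring, fell. Of the 46 tested genes, 22 were called higher and 19 lower, where 17% of all tested genes were called higher and 67.6% lower. Their median log2 fold change was 0.04, and that of all 10451 tested genes was -0.65. Because the median gene fell with Tat on the deposited scale, each value was also computed after median-ratio scaling, a division of every library by its typical ratio to the geometric mean of the libraries that brought the median of all genes to -0.03. On the scaled values 38 proteasome genes were called higher and 3 lower (37.3% and 38.0% of all genes), with a median of 0.67. Scaling raised the log2 fold change with Tat by nearly the same amount for most proteasome genes. The 22 genes called higher on the deposited scale could therefore hardly fail to stay higher, and were called higher on both. Psma8, Psmg1 and Psmg2 were called lower on both, although Psma8 passed the filter for testing only through the F/F PBS libraries. Another 14 genes changed sign, 12 of them being called in opposite directions. The shares of all genes called on both scales, or in opposite directions, are not given here. The groups did not overlap for 37 of the 46 genes, with 21 higher and 16 lower in F/F Tat (15.3% and 62.4% of all genes).

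**Figure D1:**
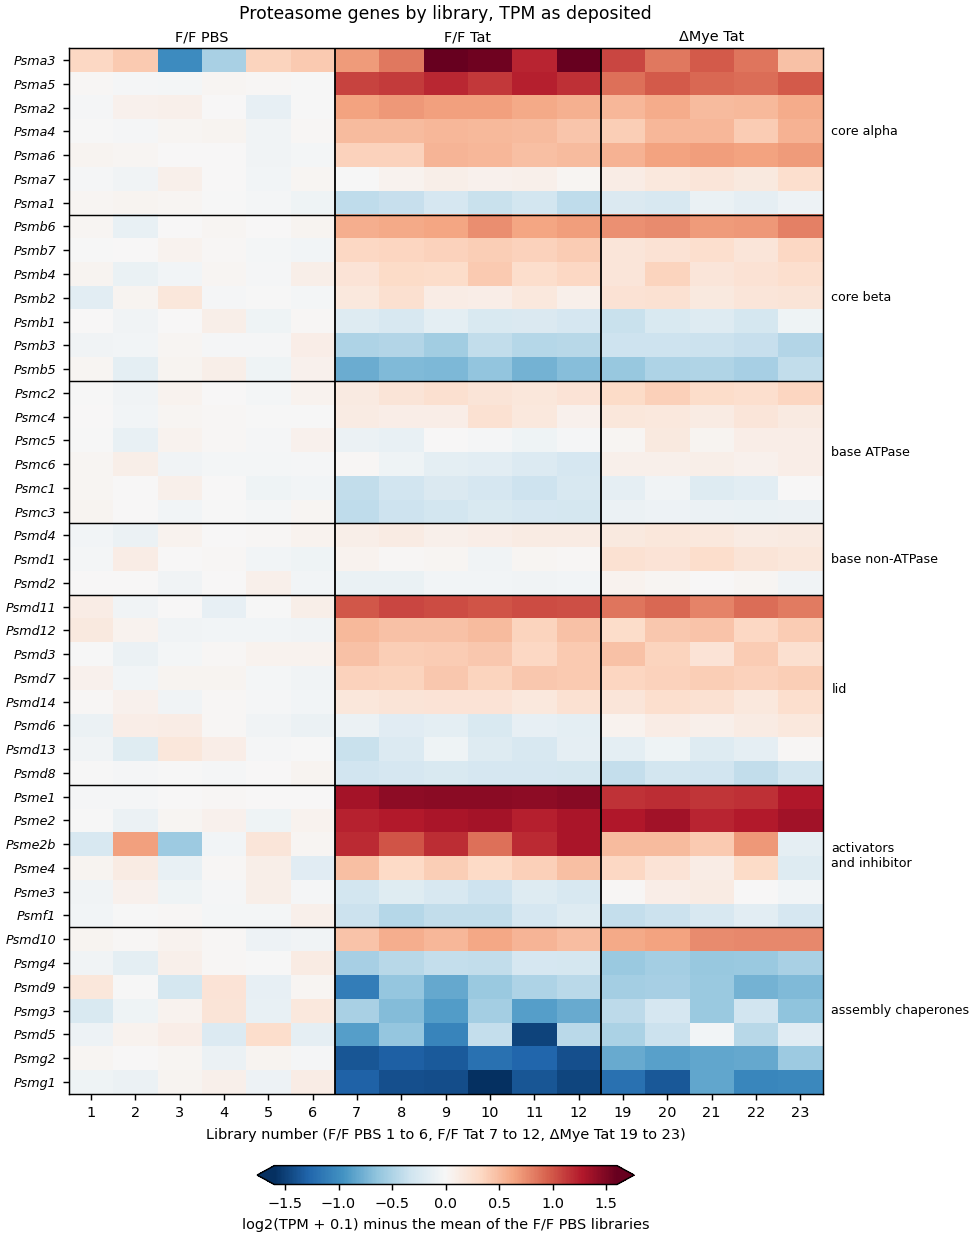
Levels by library of the 44 tested proteasome genes other than Psma8 and Psmc3ip, as log2(TPM + 0.1) minus the mean of the F/F PBS libraries (colour), with genes ordered by role and, within a role, by the change with Tat. Psme1, Psme2, Psma5 and Psmd11 are red in every Tat library and Psmg1 and Psmg2 are blue in every Tat library, and these were called in the same directions after median-ratio scaling, while genes of paler blue in F/F Tat, such as Psmc3 and Psmd8, were called higher after it.

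Psme1, which encodes PA28α, ranged from 256 to 263 TPM in F/F PBS (median 261) and from 651 to 716 TPM in F/F Tat (median 703), and was 581, 592, 575, 584 and 631 TPM in the ΔMye Tat libraries. Every Tat library lay far above every PBS library, and the 2 Tat groups did not overlap. The log2 fold change of F/F Tat against F/F PBS was 1.42 (SE 0.03, adjusted p = 4.71e-20, limma), or 2.06 after scaling. Psme2, which encodes PA28β, ranged from 664 to 740 TPM in F/F PBS (median 713) and from 1653 to 1774 TPM in F/F Tat (median 1727), and was 1721, 1788, 1651, 1700 and 1800 TPM in ΔMye Tat. It too was higher in every Tat library, but here the 2 Tat groups overlapped. Its log2 fold change with Tat was 1.28 (SE 0.03, adjusted p = 2.74e-18, limma), or 1.92 after scaling. Of the 31-base sequences of Psme2, 33.5% are also found in Psme2b, an intronless copy on chromosome 11, and 76.5% of those of Psme2b are found in Psme2, so the reads of these genes cannot be divided with certainty. Psme2b ranged from 7.13 to 16.9 TPM in F/F PBS and from 19.8 to 26.6 TPM in F/F Tat, with a log2 fold change of 1.13 (SE 0.16, adjusted p = 2.29e-06, limma).

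The other regulators moved less. Psme3 encodes the nuclear activator PA28γ, which forms its own ring. It ranged from 46.6 to 51.9 TPM in F/F PBS (median 48.2) and from 38.8 to 42.5 TPM in F/F Tat (median 40.7), and was 49.2, 52.7, 53.3, 49.2 and 47.4 TPM in ΔMye Tat. F/F Tat was thus below both other groups in every library, with a log2 fold change with Tat of -0.26 on the deposited scale that turned to 0.38 after scaling, both called by limma. Psme4, which encodes the PA200 activator, rose from a range of 17.8 to 22.2 TPM to 25.2 to 28.3 TPM, a log2 fold change of 0.39 (adjusted p = 0.000118, limma), or 1.03 after scaling. Psmf1, which encodes the inhibitor PI31, had the lowest change of the regulators. It ranged from 28.4 to 30.9 TPM in F/F PBS (median 28.8), from 21.3 to 25.2 TPM in F/F Tat (median 22.6), and was 22.4, 23, 24.4, 26.1 and 24.2 TPM in ΔMye Tat, with a log2 fold change with Tat of -0.34 (SE 0.05, adjusted p = 1.52e-06, limma) that turned to 0.29 after scaling.

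**Figure D2:**
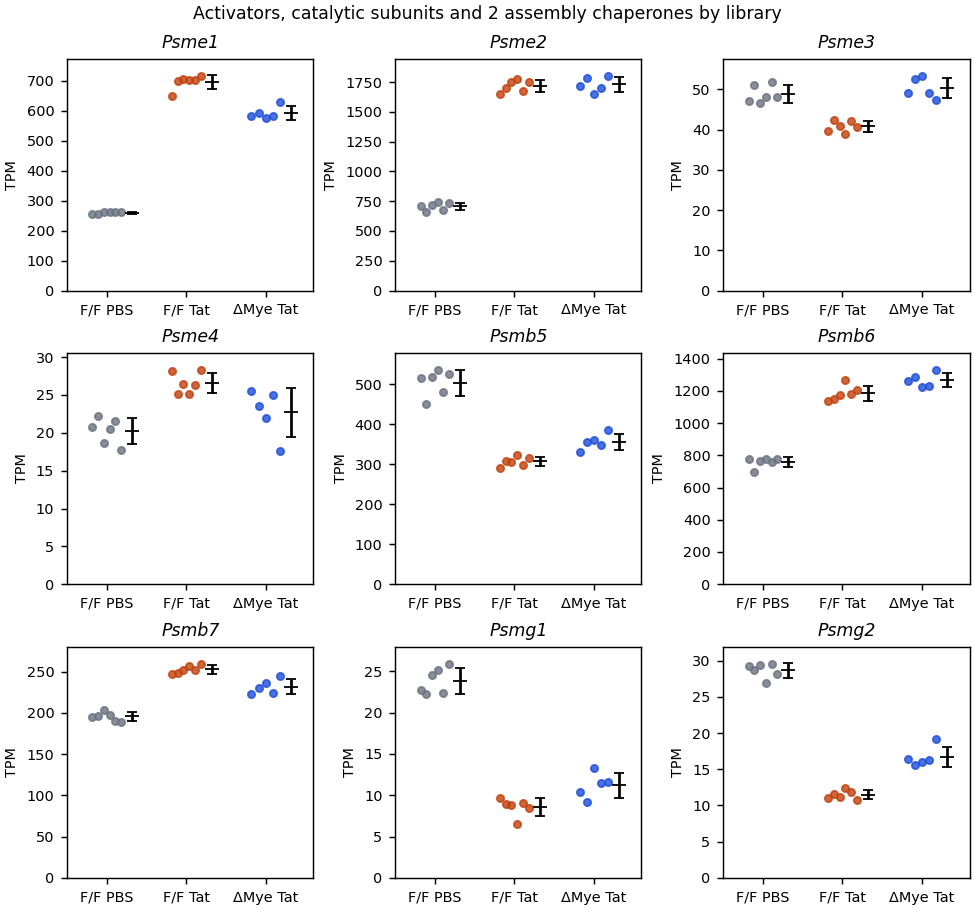
TPM by library (points) with the group mean and SD (bars) of 4 activator genes, the 3 constitutive catalytic subunits and 2 assembly chaperones, in F/F PBS (n = 6), F/F Tat (n = 6) and ΔMye Tat (n = 5). On the deposited scale drawn here, Psme1 and Psme2 lie at or above 575 and 1651 TPM in every Tat library, Psmb5 falls with Tat where Psmb6 and Psmb7 rise, and Psmg1 and Psmg2 lie below 20 TPM in every Tat library; after median-ratio scaling the fall of Psmb5 was not called and Psme3 was higher with Tat.

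Among the alpha subunits, which form the outer rings and the gate of the core, 5 were called higher and 2 lower with Tat on the deposited scale (17% and 67.6% of all genes). Their median log2 fold change was 0.48 (1.12 after scaling). Psma3 had the highest change and was the most variable of the expressed subunits. It ranged from 24.9 to 66.9 TPM in F/F PBS (median 63.5) and from 80.3 to 206 TPM in F/F Tat (median 132), and was 105, 90.1, 99.1, 90.8 and 69.3 TPM in ΔMye Tat. The 2 F/F groups did not overlap in spite of this spread, and the log2 fold change was 1.33 (SE 0.25, adjusted p = 5.33e-05, limma), or 1.97 after scaling. Of its 31-base sequences, 20.3% occur in other annotated genes, most of them in a processed pseudogene. Psma5 was far tighter, at 126 to 132 TPM in F/F PBS (median 129) and 274 to 305 TPM in F/F Tat (median 285), a log2 fold change of 1.16 (SE 0.03, adjusted p = 4.70e-18, limma), although 61% of its 31-base sequences occur in other annotated genes, none of them protein-coding. Psma2, Psma4 and Psma6 rose by 0.64, 0.50 and 0.47 on the log2 scale, Psma7 did not pass the test on the deposited scale (0.05), and Psma1 was lower on the deposited scale (-0.35) and higher after scaling (0.29). Psma8, a spermatogenic alternative to Psma7, was the only gene past a fold of 3 in addition to the adjusted p on the deposited scale. It ranged from 0.901 to 2.32 TPM in F/F PBS (median 1.45) and from 0.156 to 0.483 TPM in F/F Tat (median 0.240), and was 0.601, 0, 0.345, 0.460 and 0.560 TPM in ΔMye Tat. This was a fall of 2.15 on the log2 scale (SE 0.40, adjusted p = 5.74e-05, limma) at levels that depend on the pseudocount, and it did not exceed a fold of 3 with a pseudocount of 0.5 or 1. Because Psma8 was tested only through its level in F/F PBS, it could hardly be called in the other direction. Its call is given as a description and not as a result. Psma8 reached 1 TPM only in F/F PBS libraries 1, 2, 3, 5 and 6, so that leaving out any of these took it below the level needed for testing, and in the other 12 cases of a library left out its log2 fold change was -2.29 to -2.05. The count of genes lower with a fold over 3 was therefore 0 without F/F PBS library 2, 3, 5 or 6, and stayed at 1 without library 1, when Psmc3ip was called instead. It was 2 without F/F Tat library 8, 9 or 11, when Psmc3ip was called as well. No gene was called higher with a fold over 3 by limma on the deposited scale, and 0 were at an unadjusted p under 0.05 either, where 5.21% of all genes were called so. After scaling there were 6 such genes higher and 1 lower (8.51% and 9.73% of all genes).

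The constitutive catalytic subunits diverged with Tat. Psmb5, which encodes β5 with its chymotrypsin-like activity, ranged from 450 to 536 TPM in F/F PBS (median 517) and from 291 to 324 TPM in F/F Tat (median 307), and was 331, 356, 360, 348 and 384 TPM in ΔMye Tat. The 3 groups did not overlap, with F/F PBS highest and F/F Tat lowest. Its log2 fold change with Tat was -0.71 (SE 0.04, 95% interval -0.80 to -0.62, adjusted p = 5.08e-12, limma), but -0.08 (-0.21 to 0.05, adjusted p = 0.258) after scaling. Psmb6, which encodes the caspase-like β1, ranged from 700 to 779 TPM in F/F PBS (median 770) and from 1136 to 1268 TPM in F/F Tat (median 1176), and was 1264, 1284, 1222, 1232 and 1330 TPM in ΔMye Tat. Every Tat library was above every PBS library, with a log2 fold change of 0.64 (SE 0.03, adjusted p = 2.67e-13, limma), or 1.28 after scaling. Psmb7, which encodes the trypsin-like β2, ranged from 189 to 204 TPM in F/F PBS (median 196) and from 247 to 260 TPM in F/F Tat (median 251), and was 223, 231, 236, 224 and 245 TPM in ΔMye Tat, with a log2 fold change with Tat of 0.37 (SE 0.03, adjusted p = 1.74e-10, limma), or 1.00 after scaling. The 3 groups were separate for Psmb7 as well, with F/F Tat highest. For Psmb5, 71.7% of the 31-base sequences also occur in other annotated genes, none of them protein-coding, against 6.24% for Psmb6 and 11.3% for Psmb7, and whether its reads were divided among these was not tested. Of the 4 non-catalytic beta genes, Psmb4 and Psmb2 rose by 0.31 and 0.15, while Psmb1 and Psmb3 were lower on the deposited scale (-0.23 and -0.47) and higher after scaling (0.41 and 0.17).

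The inducible subunits were then set against the constitutive subunits they replace, within each library. Such a ratio does not depend on the scaling between libraries. Psmb8:Psmb5 was 0.606 to 0.665 in F/F PBS (median 0.646) and 2.25 to 2.59 in F/F Tat (median 2.45), and was 2.06, 2.01, 1.78, 1.86 and 1.89 in ΔMye Tat. Psmb8 thus made up 39.0% ± 0.981 (SD, n = 6) of the 2 transcripts with PBS and 70.9% ± 1.21 (SD, n = 6) with Tat, a log2 difference in ratio of 1.93. Psmb10:Psmb7 was 0.988 to 1.13 in F/F PBS, 2.33 to 2.58 in F/F Tat and 2.15 to 2.36 in ΔMye Tat, and the log2 difference with Tat was 1.17. Psmb9:Psmb6 moved less, from 0.143 to 0.156 in F/F PBS to 0.226 to 0.247 in F/F Tat, a log2 difference of 0.65, and Psmb9 was the minor transcript of its pair in all 17 libraries. Psme1:Psme3, the 2 forms of PA28 that do not mix, was 5.02 to 5.62 in F/F PBS (median 5.43) and 16.4 to 18.1 in F/F Tat (median 16.9), and was 11.8, 11.2, 10.8, 11.9 and 13.3 in ΔMye Tat, with a log2 difference with Tat of 1.68. All 4 ratios were higher in every F/F Tat library than in every F/F PBS library (two-sided exact permutation test, p = 0.00216, which is the lowest possible for 6 against 6, adjusted p = 0.00472 over 12 tests). Psmb8 itself had a mean of 322 TPM in F/F PBS and 748 TPM in F/F Tat, Psmb9 of 115 and 282 TPM, and Psmb10 of 211 and 614 TPM, log2 fold changes of 1.22, 1.29 and 1.54.

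**Figure D3:**
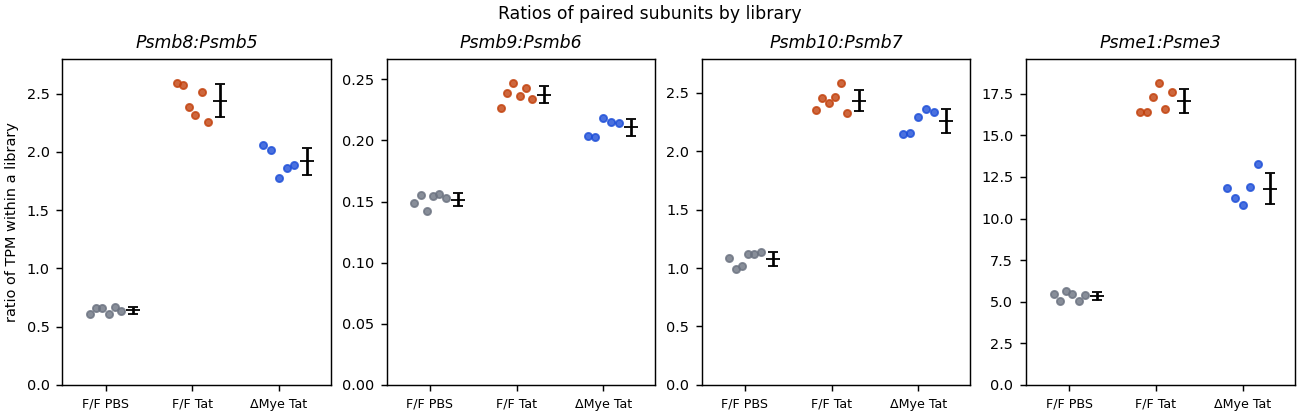
Ratio of the TPM of paired genes within each library (points) with the group mean and SD (bars), for the 3 inducible over constitutive catalytic subunits and for Psme1 over Psme3, in F/F PBS (n = 6), F/F Tat (n = 6) and ΔMye Tat (n = 5). All 4 ratios are higher with Tat, and the ΔMye Tat libraries lie between the other groups, apart from an overlap with F/F Tat for Psmb10:Psmb7.

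The 19S regulator was close to level in sum on the deposited scale. The 17 base and lid genes summed to a mean of 2221 ± 20.1 TPM (SD, n = 6) in F/F PBS and 2224 ± 24.2 TPM (SD, n = 6) in F/F Tat. Within this sum 8 genes were called higher, 6 lower and 3 neither on the deposited scale, where 17% of all genes were higher and 67.6% lower. All 17 were called higher after scaling (37.3% of all genes). Among the ATPases of the base, Psmc2 had the highest change and Psmc3 the lowest. Psmc2 ranged from 104 to 112 TPM in F/F PBS (median 108) and from 120 to 129 TPM in F/F Tat (median 125), and was 134, 141, 133, 131 and 138 TPM in ΔMye Tat, with a log2 fold change with Tat of 0.20 (SE 0.03, adjusted p = 1.79e-06, limma). Psmc3 ranged from 157 to 167 TPM in F/F PBS (median 162) and from 122 to 137 TPM in F/F Tat (median 133), and was 152, 153, 152, 150 and 151 TPM in ΔMye Tat, with a log2 fold change with Tat of -0.30 (SE 0.03, adjusted p = 5.44e-09, limma) that turned to 0.33 after scaling. The groups were separate for both genes. Because the 2 genes were picked as the highest and the lowest of the ATPases, a rise of Psmc2 relative to Psmc3 followed from that choice. Their ratio was not tested.

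Psmd4, a ubiquitin receptor of the base, was 132 to 147 TPM with PBS (median 142), from 149 to 155 TPM in F/F Tat (median 153) and 157, 159, 158, 154 and 155 TPM in ΔMye Tat. The F/F groups did not overlap, and the log2 fold change was 0.12 (SE 0.03, adjusted p = 0.000719, limma). Psmd2, a large scaffold of the base, was 142 to 156 TPM with PBS (median 149), from 138 to 144 TPM in F/F Tat (median 143) and 154, 152, 148, 151 and 143 TPM in ΔMye Tat, with overlap of all groups and a log2 fold change with Tat of -0.06 (95% interval -0.12 to -0.01, adjusted p = 0.0378, limma), or 0.57 after scaling. In the lid, 5 genes were called higher and 3 lower on the deposited scale (17% and 67.6% of all genes). Psmd11, a scaffold that holds the lid to the base and core, had by far the highest change of the 19S genes. It ranged from 51.5 to 61.4 TPM in F/F PBS (median 56.5) and from 113 to 119 TPM in F/F Tat (median 116), and was 103, 107, 98.7, 105 and 101 TPM in ΔMye Tat. Every Tat library lay above every PBS library, and the log2 fold change was 1.03 (SE 0.04, adjusted p = 2.54e-15, limma), or 1.66 after scaling. The lid genes Psmd12, Psmd3, Psmd7 and Psmd14, the last of which encodes the deubiquitinase of the lid, rose by 0.46, 0.41, 0.39 and 0.21. Psmd8, the most abundant lid gene, was 554 to 577 TPM with PBS (median 561), from 456 to 475 TPM in F/F Tat (median 466) and 431, 460, 453, 429 and 457 TPM in ΔMye Tat, with a log2 fold change with Tat of -0.27 (SE 0.02, adjusted p = 8.48e-10, limma) that turned to 0.36 after scaling.

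**Figure D4:**
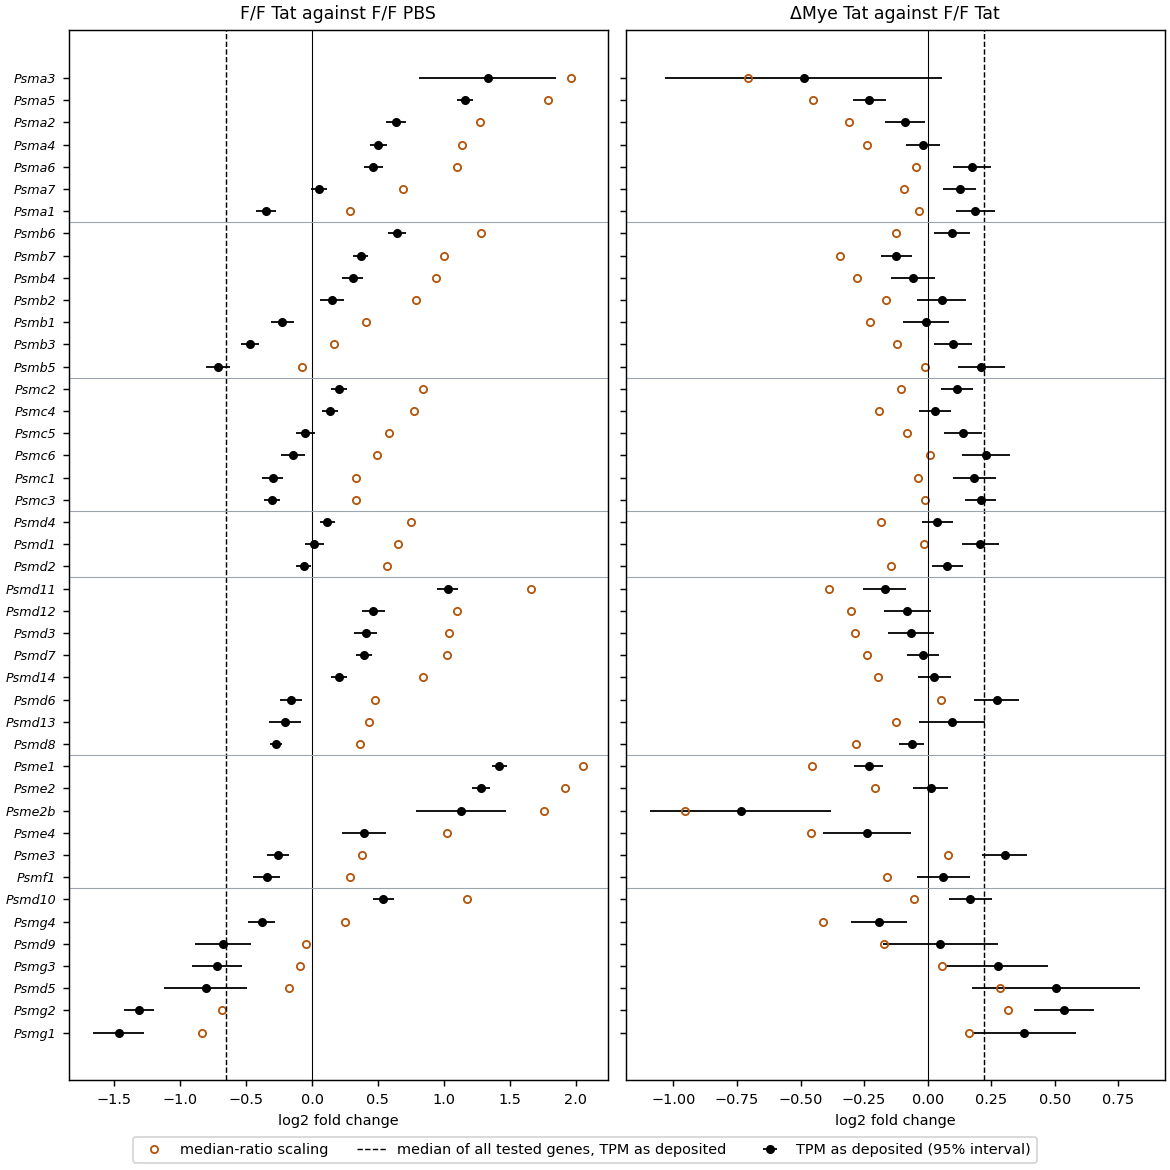
Log2 fold change of 44 proteasome genes on log2(TPM + 0.1), for Tat in F/F PMs (F/F Tat minus F/F PBS, left) and IKKβ deletion under Tat (ΔMye Tat minus F/F Tat, right), from the TPM as deposited (filled, 95% interval) and after median-ratio scaling (open), with the median of all tested genes on the deposited scale as a broken line at -0.65 and 0.22. Most genes lie to the right of the broken line on the left and to the left of it on the right, and the scaled values are shifted by nearly the same amount for all genes, so 14 and 21 of the 46 tested genes change sign. Horizontal lines separate the roles.

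Of the 7 assembly chaperones, 6 were called lower on the deposited scale, where 67.6% of all genes were lower, and their median log2 fold change of -0.72 was near the -0.65 of all genes. After scaling 2 were lower and 2 higher (38.0% and 37.3% of all genes), with a median of -0.09. Psmg1 and Psmg2 encode the partners that seed the alpha ring. Psmg1 ranged from 22.2 to 25.9 TPM in F/F PBS (median 23.6) and from 6.54 to 9.66 TPM in F/F Tat (median 8.85), and was 10.4, 9.20, 13.3, 11.5 and 11.6 TPM in ΔMye Tat. Psmg2 ranged from 26.9 to 29.6 TPM in F/F PBS (median 29) and from 10.7 to 12.5 TPM in F/F Tat (median 11.4), and was 16.4, 15.6, 16.1, 16.3 and 19.2 TPM in ΔMye Tat. No Tat library reached the lowest PBS library for either gene. With Tat, Psmg1 fell by 1.47 on the log2 scale (SE 0.09, adjusted p = 1.05e-11, limma) and Psmg2 fell by 1.32 (SE 0.05, adjusted p = 1.13e-14, limma), and after scaling they still fell by 0.84 and 0.68. The chaperone gene with the highest change was Psmd10, which encodes gankyrin, a chaperone of the base. It ranged from 64.2 to 70.6 TPM in F/F PBS (median 69.1) and from 93.7 to 104 TPM in F/F Tat (median 99.2), and was 104, 106, 115, 116 and 116 TPM in ΔMye Tat, with a log2 fold change with Tat of 0.54 (SE 0.04, adjusted p = 8.19e-11, limma). Psmg3, Psmd9 and Psmd5 were lower on the deposited scale (-0.72, -0.68 and -0.81) and did not pass the test after scaling (-0.09, -0.04 and -0.18), and Psmg4 was lower before (-0.38) and higher after scaling (0.25).

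These differences changed the make-up of the proteasome transcripts within each library, which is described here without a test. Shares within a library do not depend on scaling, whereas the summed TPM does. On the deposited scale the 47 genes summed to 6861 to 7195 TPM with PBS, to 8795 to 9396 TPM with Tat in F/F and to 9115 to 9550 TPM with Tat in ΔMye. Psme1 and Psme2 together took 13.4% to 14% of this sum in F/F PBS, 26.1% to 26.6% in F/F Tat and 24.3% to 25.5% in ΔMye Tat. The share of the beta subunits fell from 31.2% to 32.7% with PBS to 27% to 28.3% with Tat, that of the ATPases from 10.1% to 10.3% to 7.31% to 7.53%, the lid from 15.9% to 16.4% to 12.4% to 13.2%, and the assembly chaperones from 3.84% to 3.97% to 2.39% to 2.55%. A smaller share was not always a smaller sum. On the deposited scale the mean sums rose for the beta genes (2280.5 to 2529 TPM) and the lid (1138 to 1173 TPM). They fell for the ATPases (719 to 681 TPM) and the chaperones (277 to 227 TPM). The alpha subunits overlapped, at 16.8% to 17.8% and 17.4% to 18.5%. Within PA28, Psme1 made up 26.2% to 27.9% in F/F PBS, 28.3% to 29.6% in F/F Tat and 24.9% to 25.9% in ΔMye Tat, 3 ranges that did not overlap.

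**Figure D5:**
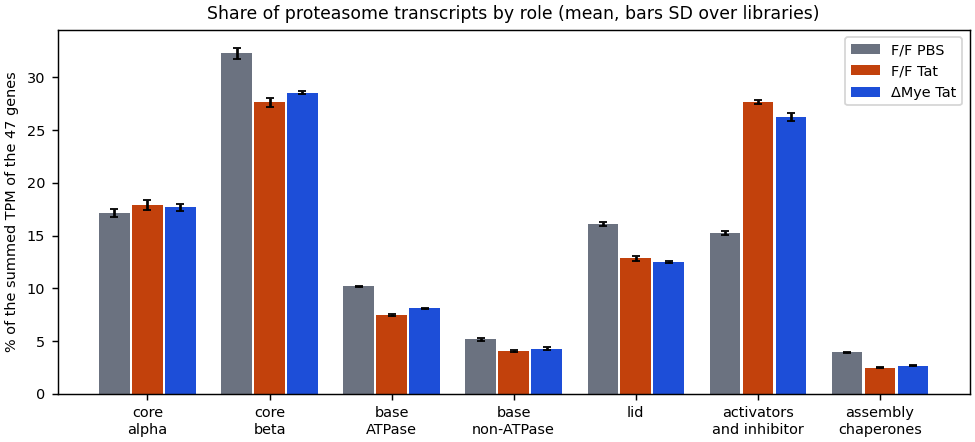
Share of the summed TPM of the 47 proteasome genes taken by each role (mean, bars SD over libraries) in F/F PBS (n = 6), F/F Tat (n = 6) and ΔMye Tat (n = 5). The activators rise from a mean of 15.2% to 27.6% with Tat and are at 26.3% in ΔMye Tat, while the beta subunits fall from 32.3% to 27.6% and the base and lid also take smaller shares; Psmc3ip is in the sum and is not drawn.

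To determine whether myeloid IKKβ deletion altered the proteasome genes under Tat, ΔMye Tat was compared with F/F Tat. This comparison shares the F/F Tat libraries with the one above. The differences were small beside those with Tat, and their sign depended on the scaling for 21 of the 46 genes. On the deposited scale 15 genes were called higher and 6 lower in ΔMye Tat by limma, where 38.8% and 8.87% of all genes were called so, and after scaling 1 was higher and 21 lower (15.9% and 19.4% of all genes). The median log2 fold change was 0.07 before and -0.15 after scaling, and that of all genes was 0.22 and 0.01. No gene was called with a fold over 3 by limma on either scale (0.440% of all genes were called higher and 0.316% lower so before scaling, and 0.239% and 0.612% after it), and 1 gene, Psmc3ip, had a fold over 3 at an unadjusted p under 0.05. The groups did not overlap for 13 genes that were higher and 5 that were lower in ΔMye Tat (28.6% and 8.01% of all genes). None of the 21 genes that changed sign was called in opposite directions, and 7 genes were called with the same sign on both scales. Scaling lowered the values of this comparison by nearly the same amount for most genes. The 6 genes called lower on both therefore moved further down, and of the 7 only Psmg2 moved against its call. The share of all genes called on both scales is not given here, so whether 7 of 46 is unusual cannot be read from this count.

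Of these 7 genes, Psmg2 was higher in ΔMye Tat and Psma5, Psmb7, Psmd11, Psme1, Psme2b and Psmg4 were lower. Psmg2, the gene of an alpha ring chaperone, rose by 0.54 on the log2 scale (SE 0.06, adjusted p = 1.76e-07, limma), or 0.32 after scaling, and its levels in ΔMye Tat lay between those of F/F Tat and F/F PBS without overlap. Psme1 fell by 0.23 (SE 0.03, adjusted p = 9.65e-07, limma), or 0.45 after scaling, to 85.1% of the F/F Tat mean, while its partner Psme2 differed by 0.01 (95% interval -0.06 to 0.08, adjusted p = 0.765), or -0.21 after scaling (adjusted p = 0.00272). Psma5 was 237, 253, 243, 240 and 253 TPM in ΔMye Tat, below every F/F Tat library, and fell by 0.23 (SE 0.03, adjusted p = 3.44e-06, limma), or 0.45 after scaling. Psmd11 fell by 0.17 (SE 0.04, adjusted p = 0.00136, limma), or 0.39 after scaling. Psmb7 fell by 0.12 (SE 0.03, adjusted p = 0.00122, limma), or 0.34 after scaling, and was not called after quantile normalization (-0.11, adjusted p = 0.0315). Psmg4 was 55.3, 57.3, 54.7, 55.2 and 58.1 TPM in ΔMye Tat against 57.8 to 69.4 TPM in F/F Tat, and fell by 0.19 (SE 0.05, adjusted p = 0.00434, limma). It was not called when F/F Tat library 11 or 12 or ΔMye Tat library 19, 21 or 22 was left out (-0.17 to -0.19). Psme2b had the lowest value of this comparison, -0.74 (SE 0.17, adjusted p = 0.00112, limma), at 15.1, 15.2, 14.3, 17.3 and 9.62 TPM in ΔMye Tat, with most of its sequence shared with Psme2. The highest value, 1.70 for Psmc3ip (SE 0.67, adjusted p = 0.0371, limma), did not pass the test, and its levels were 0 to 1.61 TPM in F/F Tat and 0.926, 1.68, 1.12, 1.78 and 1.26 TPM in ΔMye Tat.

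Several genes called with IKKβ deletion on the deposited scale were not called after scaling. Psmb5 was higher in ΔMye Tat (0.21, adjusted p = 0.000501, limma) before scaling and level after it (-0.01, 95% interval -0.15 to 0.13). Psme3 was higher before scaling (0.30, adjusted p = 5.50e-06, limma) and was not called after it (0.08, adjusted p = 0.0754). All ATPase genes but Psmc4 were called higher before scaling, at 0.12 to 0.23, where 38.8% of all genes were called so. The median of the ATPase genes was 0.16, below the 0.22 of all genes. After scaling no ATPase gene was called higher (15.9% of all genes). Psmc2, the lowest of those called before scaling, was also not called without ΔMye Tat library 20 (0.10). Psmb6 was at 0.10 before and -0.13 after scaling, and neither was called (adjusted p = 0.0200 and 0.0565, limma). It was called before scaling when F/F PBS library 2 or F/F Tat library 10 was left out. Psme4, at 25.5, 23.5, 22, 25 and 17.5 TPM in ΔMye Tat, was at -0.24 (adjusted p = 0.0188, limma) before and -0.46 after scaling, where it was called, and on the deposited scale it was called without ΔMye Tat library 19.

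The ratios within libraries moved toward the constitutive subunits, and toward Psme3, with IKKβ deletion. Psmb8:Psmb5 was lower in ΔMye Tat than in F/F Tat by 0.35 on the log2 scale, so that Psmb8 took 65.7% ± 1.35 (SD, n = 5) of the pair against 70.9%. Psmb9:Psmb6 was lower by 0.17 and Psme1:Psme3 by 0.53. These 3 ratios did not overlap between the Tat groups (two-sided exact permutation test, p = 0.00433, which is the lowest possible for 6 against 5, adjusted p = 0.00472). Psmb10:Psmb7 was lower by 0.11, with overlap of the groups (exact permutation test, p = 0.0216, adjusted p = 0.0216). Relative to F/F PBS, the 4 ratios were still higher in ΔMye Tat, by 1.58, 0.47, 1.07 and 1.14 for Psmb8:Psmb5, Psmb9:Psmb6, Psmb10:Psmb7 and Psme1:Psme3, without overlap (exact permutation test, p = 0.00433, adjusted p = 0.00472). Psmb8, Psmb9 and Psmb10 had means of 682, 267 and 524 TPM in ΔMye Tat.

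ΔMye Tat was also compared with F/F PBS, a comparison that shares libraries with both others. On the deposited scale 22 genes were called higher and 13 lower by limma (17.5% and 58.8% of all genes), and after scaling 33 were higher and 3 lower (33.8% and 33.9%). With a fold over 3, limma called 0 higher and 1 lower before scaling (4.38% and 11.1% of all genes), with 0 higher at an unadjusted p under 0.05 as well, and 2 higher and 0 lower after it (6.39% and 6.30%), with 0 lower at an unadjusted p under 0.05. The groups did not overlap for 21 genes that were higher and 12 that were lower (14.8% and 52.8%). Psma8, Psmg1 and Psmg2 were again lower on both scales, with Psma8 again tested only through F/F PBS. The log2 fold change of ΔMye Tat against F/F PBS was 1.19 for Psme1, 1.29 for Psme2, 0.74 for Psmb6, 0.25 for Psmb7 and -0.50 for Psmb5 on the deposited scale. The last was -0.09 and not called after scaling.

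The rest of the ubiquitin-proteasome pathway was represented by 29 listed genes, all of which were tested. With Tat, 7 were called higher and 17 lower by limma on the deposited scale (17% and 67.6% of all genes), and 19 higher and 4 lower after scaling (37.3% and 38.0% of all genes). Ubb, a polyubiquitin gene, rose by 0.47 on the log2 scale, while Rps27a, which encodes ubiquitin fused to a ribosomal protein, was lower (-0.51) and not called after scaling (0.12). Uba1, the main ubiquitin-activating enzyme, rose from a mean of 118 to 219 TPM (0.89). Adrm1, a ubiquitin receptor of the base, and Pomp, the chaperone that matures the core, rose by 0.13 and 0.23. The deubiquitinase genes Usp14 and Uchl5, whose products bind the 19S regulator, were at -0.69 and -0.95, and after scaling Usp14 was not called (-0.05) whereas Uchl5 was still lower (-0.32). Among the transcriptional regulators of proteasome genes, Nfe2l1, which encodes NRF1, was called lower before (-0.48) and higher after scaling (0.15), Nfe2l2, which encodes NRF2, was lower on both (-0.87 and -0.24), and Ddi2, the protease that activates NRF1, had the lowest value of the list (-1.32, or -0.69 after scaling), at a mean of 25 TPM with PBS and 9.90 TPM with Tat. In ΔMye Tat against F/F Tat, 15 of the 29 were called higher and 2 lower on the deposited scale (38.8% and 8.87% of all genes), and 3 higher and 6 lower after scaling (15.9% and 19.4%). Uba1 was lower before (-0.36) and after scaling (-0.58).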

How the data were processed

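RNA-Seq of 17 PM libraries was analysed as deposited. The authors deposited TPM by gene symbol, from Salmon and Ensembl's GRCm38 annotation, in 21683 listed genes of which 2 repeat a symbol. The authors used TMM in edgeR on read counts for their own comparison, which was not repeated, and no scaling between libraries is stated for the deposited TPM. TPM keep no depth, so the spread between libraries was the only error. Genes at 1 TPM or more in at least 5 libraries (10451) were fitted with limma 3.58.1 in R 4.3.3 on log2(TPM + 0.1), with all 3 groups in 1 fit (14 residual degrees of freedom), eBayes with trend and Benjamini-Hochberg adjustment over all tested genes. Folds are on that scale and understate changes of low genes. Calls were made at an adjusted p under 0.01, and the study's added fold of 3 was a second threshold. Ratios of log2(TPM + 0.1) were compared by exact permutation tests in scipy 1.17.1, 12 in all. The genes, roles and lists were chosen with earlier results of these data known. The rule for genes described in full took Psmb5, Psmb6, Psmb7, Psme1 and Psme2, the highest and lowest of each role with Tat, those past both thresholds, the highest and lowest with deletion, and the ends of the pathway list. Some results of this rule, and an allele common to all groups, are not reported here. Psma5, Psmg2, Psmg4, Psme3 and Psme4 were added after their values were seen. No 2 libraries held the same values. The fit was tested on simulated data. Alternatives were median-ratio scaling, quantile normalization, a pseudocount of 0.5 or 1, a filter at 5 TPM or none, a fit of the compared groups alone, array weights with robust eBayes, and leaving out each library. Coordinates are from GENCODE on GRCm38, and promoter windows from RefSeq (GRCm38.p6). The share of 31-base sequences that occur in other genes was counted over the reference transcripts.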

Additional observations from a re-analysis of the deposited data

Results flagged for a closer look

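In 138 checks of a group of libraries for a proteasome gene, 5 had a lowest or highest library that stood apart from the rest of its group by Dixon's test, and chance gives about 1 in 20. Psmb6 was 699.6 TPM in F/F PBS library 2 and 760 to 779 TPM in the other F/F PBS libraries. Psme1 was 651 TPM in F/F Tat library 7 and 698 to 716 TPM in the others. Psmd1 was 72.1 TPM in F/F Tat library 10 against 75.8 to 77.7 TPM, and Psmg1 was 6.54 TPM in the same library against 8.5 to 9.66 TPM. Psmg2 was 19.2 TPM in ΔMye Tat library 23 against 15.6 to 16.4 TPM. Leaving out these libraries in turn did not change a call with Tat for Psmb6, Psme1, Psmg1 or Psmg2. With IKKβ deletion, Psmb6 was called higher without F/F PBS library 2 (0.10) or without F/F Tat library 10. The F/F PBS libraries enter that comparison only through the spread shared by all groups in the fit.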

How the results depend on the processing

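Scaling between libraries was the choice that moved the counts, because the median gene differed between groups by -0.65 (Tat) and 0.22 (IKKβ deletion) before scaling, and which scale is right was not tested. With Tat, median-ratio scaling gave 38 genes higher and 3 lower, 6 higher with a fold over 3, and quantile normalization gave 11 lower and 1 higher with a fold over 3. The count of 1 lower with a fold over 3 became 0 with a filter at 5 TPM, pseudocounts of 0.5 and 1, and quantile normalization, and was 0 to 2 with a library left out, since Psma8 then fell below the level for testing or Psmc3ip was also called. With IKKβ deletion, median-ratio scaling gave 1 higher and 21 lower, and quantile normalization 7 higher. For ΔMye Tat against F/F PBS, median-ratio scaling gave 3 lower, 2 higher and 0 lower with a fold over 3. The filter at 5 TPM, the pseudocounts of 0.5 and 1 and quantile normalization also gave 0 lower with a fold over 3, and leaving out a library gave 0 to 1. Signs turned under median-ratio scaling with Tat for 14 of the 46 tested genes, among them Psmc3 (0.33), Psmd2 (0.57), Psmd8 (0.36), Psmf1 (0.29), Psmg4 (0.25) and Psme3 (0.38). Under quantile normalization those of Psmf1 (0.092) and Psme3 (0.055) turned. With IKKβ deletion, median-ratio scaling turned the signs of 21 genes. Among them were Psmb5 (-0.0091), Psmb6 (-0.13), Psme2 (-0.21), Psmc3 (-0.012), Psmc2 (-0.10), Psmd2 (-0.14), Psmd4 (-0.18), Psmf1 (-0.16) and Psmd10 (-0.052). In ΔMye Tat against F/F PBS it turned those of 10 genes, among them Psmc3 (0.32), Psmd8 (0.080) and Psmf1 (0.13). The 12 ratio tests kept their direction and their side of an adjusted p of 0.05 with a pseudocount of 1 and with each library left out. No paired analysis was possible because the groups share no replicate number.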
